A study of Rattus norvegicus with 16 samples.

Results

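The genes described here encode 9 peptide hormones of islet and gut endocrine cells other than insulin: cholecystokinin (Cck), gastrin (Gast), glucagon (Gcg), glucose-dependent insulinotropic polypeptide (Gip), somatostatin (Sst), ghrelin (Ghrl), neuropeptide Y (Npy), pancreatic polypeptide (Ppy) and peptide YY (Pyy). Members were found by gene symbol in the platform annotation, and each of the 9 had 1 transcript cluster among the 23188 on the array. They were selected on the known result of this same comparison, in which Cck was among the largest rises, so their levels and differences are given as a description without tests. The cells were 832/13 INS1 β cells, a clonal line from a rat insulinoma, here called INS1 β cells. They were transduced with a lentiviral vector for GFP (8 arrays) or for Pax5 (8 arrays) at an MOI of 1.25 for 24 h, cultured for 48 h more in medium with 11.1 mM glucose, and harvested at 72 h. In the study's lentiviral vectors the human phosphoglycerate kinase 1 promoter drove the transgene, and whether the Pax5 of these arrays carried the HA tag used elsewhere in the study is not stated in the labels. The titles pair the arrays, 1 of each kind, into 8 numbered experiments, and whether these were separate cultures is not stated. Errors therefore refer to these experiments only. Each SE is that of the limma fit, which moves the variance of a gene toward a value common to all clusters. It is not the spread of that gene's 8 differences alone. The Pax5 vector delivers a B lymphocyte transcription factor, and both groups carried a virus.

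Peptide hormones are made as longer precursors, which convertases and other enzymes of the secretory granule cut and modify before release. In the adult islet each hormone marks its own cell type: glucagon the α cell, somatostatin the δ cell, pancreatic polypeptide the PP cell and ghrelin the ε cell. Cholecystokinin, gastrin, GIP and peptide YY are best known from enteroendocrine cells of the gut, and neuropeptide Y from neurons. Cholecystokinin and gastrin share the end of their active peptides and belong to 1 family, glucagon and GIP belong to the secretin family, and neuropeptide Y, pancreatic polypeptide and peptide YY form a family of their own.

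Promoter windows of 8 of the 9 genes were found in the RefSeq table for the GRCr8 build. Each held 250 bases before and 30 after the annotated start. No window was found for Cck, the gene with the largest difference of the 9, so its promoter was not searched. Windows of 3 genes are shown because they differ in signal and in sequence: Gcg, bright and higher with Pax5, Sst, dim and level, and Npy, bright with differences that varied between experiments. Capitals mark TATAAA in Gcg, searched on the sense strand, TGACGTCA (the cAMP response element) in Sst, and GCGTGAC (a core of paired-domain sites such as those of Pax5) in Npy, the last pair searched on both strands. Counted from the annotated start, the marked motif begins at base -32 in Gcg, -61 in Npy and 3 in Sst. That of Sst therefore lies after the annotated start, and whether transcription begins at that annotated base was not examined. No marked motif overlaps another. They lie at chr3:67531504-67531783, minus strand for Gcg, chr11:90461296-90461575, plus strand for Sst and chr4:80211861-80212140, plus strand for Npy.
Gcg: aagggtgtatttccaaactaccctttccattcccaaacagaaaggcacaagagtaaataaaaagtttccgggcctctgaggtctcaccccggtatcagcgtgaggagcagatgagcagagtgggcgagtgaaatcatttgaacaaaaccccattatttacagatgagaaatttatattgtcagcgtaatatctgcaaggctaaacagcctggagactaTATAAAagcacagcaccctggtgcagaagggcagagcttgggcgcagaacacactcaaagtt
Sst: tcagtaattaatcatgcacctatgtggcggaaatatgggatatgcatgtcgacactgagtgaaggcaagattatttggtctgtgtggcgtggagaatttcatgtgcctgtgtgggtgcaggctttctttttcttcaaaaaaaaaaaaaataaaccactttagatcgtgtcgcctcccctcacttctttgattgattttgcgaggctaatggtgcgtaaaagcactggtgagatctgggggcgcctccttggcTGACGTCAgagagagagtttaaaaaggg
Npy: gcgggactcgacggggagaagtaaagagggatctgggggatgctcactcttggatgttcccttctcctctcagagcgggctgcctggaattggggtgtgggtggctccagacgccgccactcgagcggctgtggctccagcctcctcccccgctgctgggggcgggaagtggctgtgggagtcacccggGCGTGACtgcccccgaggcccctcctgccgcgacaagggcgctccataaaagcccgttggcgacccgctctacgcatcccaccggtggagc

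Across all 33469 windows of this length in the table, TATAAA was present in 8.48%, TGACGTCA in 1.78% and GCGTGAC in 1.92%. Among the 8 windows of hormone genes, TATAAA was present in 2 (Gcg and Ppy), TGACGTCA in 1 (Sst) and GCGTGAC in 1 (Npy). The E box CANNTG, not marked in the sequences, was present in 69.7% of all windows and in 6 of the 8, with 3 copies in that of Gcg. A match only states that these letters are present in the window.

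Pax5 itself, the transgene, rose from a log2 signal between 7.23 and 8.39 on GFP arrays to one between 17.02 and 17.56 on Pax5 arrays (8 each), a difference of 9.33 (SE 0.153), and the arrays followed their labels. Array medians lay between 6.98 and 7.01, and no pair of arrays correlated below 0.989 across clusters. The 2 arrays of an experiment mirrored each other around the means of their groups (correlation of deviations between -0.749 and -0.704 across clusters), whereas arrays of different numbers correlated between -0.0893 and 0.259. The level on a GFP array is therefore tied to the difference of its experiment, and a low GFP value beside a large difference is not a separate observation. Whether experiment means were removed before deposit is not stated, and the cause was not tested. Of the 8 measured β cell markers, all lay above the dimmest 30% of clusters, while 4 of the 5 of the δ cell list did not (Sst, Hhex, Rbp4 and Prg4). Also above it were 6 of 7 α cell, 2 of 2 ε cell and 4 of 4 fibroblast markers, so this place alone marks no cell type. Of the β cell markers, Slc2a2 fell by 0.95, Slc30a8 fell by 0.40 and Iapp rose by 0.46 (adjusted p of 0.000862 or below in limma). The other measured β cell markers were not called. Rbp4, the retinol carrier, rose by 0.33 (adjusted p = 0.00118 in limma) and Prg4, a proteoglycan, rose by 0.23 (adjusted p = 0.0236 in limma), while Hhex, a δ cell transcription factor, had a difference of -0.12 (adjusted p = 0.349 in limma). The summed signal of the δ cell list lay between 7.70 and 7.90 in GFP arrays and between 7.79 and 7.97 in Pax5 arrays, that of the PP cell list between 6.56 and 6.77 and between 6.67 and 6.88. The summed α cell list lay between 18.83 and 18.98 in GFP arrays and between 19.02 and 19.14 in Pax5 arrays. Its brightest members were Gcg and Gc, the vitamin D binding protein, and Irx1 was in the dimmest 30%. Gcg rose by 0.74 while Gc fell by 0.36, so the higher sum is not separate from the Gcg difference given below. The summed ε cell list, of Acsl1 and Ghrl, lay between 11.9 and 12.2 in GFP arrays and between 11.5 and 11.8 in Pax5 arrays. Acsl1, its brighter member, fell by 0.38 (adjusted p = 0.000384 in limma). The δ, PP and ε cell lists likewise hold the hormone genes Sst, Ppy and Ghrl. Probes differ in how brightly they report a transcript, so a signal is compared below only with the same cluster in other arrays. The percentile given for a cluster is its place among all 23188 by mean signal and says how far it stood from the dim end.

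In the comparison of Pax5 with GFP within experiments, 30.7% of all clusters were called at an adjusted p under 0.05 in limma (14.6% higher, 16.1% lower). Of the 9 hormone genes, 4 were called higher (Cck, Gcg, Npy and Pyy) and none lower. Since the genes were picked with this comparison known, nothing is read from that count. Signals of the GFP and the Pax5 arrays did not overlap for 2 of the 9, Cck and Gcg, compared with 16.7% of all clusters. Some of these calls rested on single experiments: Npy was not called without experiment 4, 6, 7 or 8, Pyy not without experiment 6 or 7, Ppy was called without experiment 2, 6 or 8, and Gast without experiment 4 or 7. In bulk RNA, more cells that express a gene and more RNA per cell cannot be told apart.

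**Figure D1:**
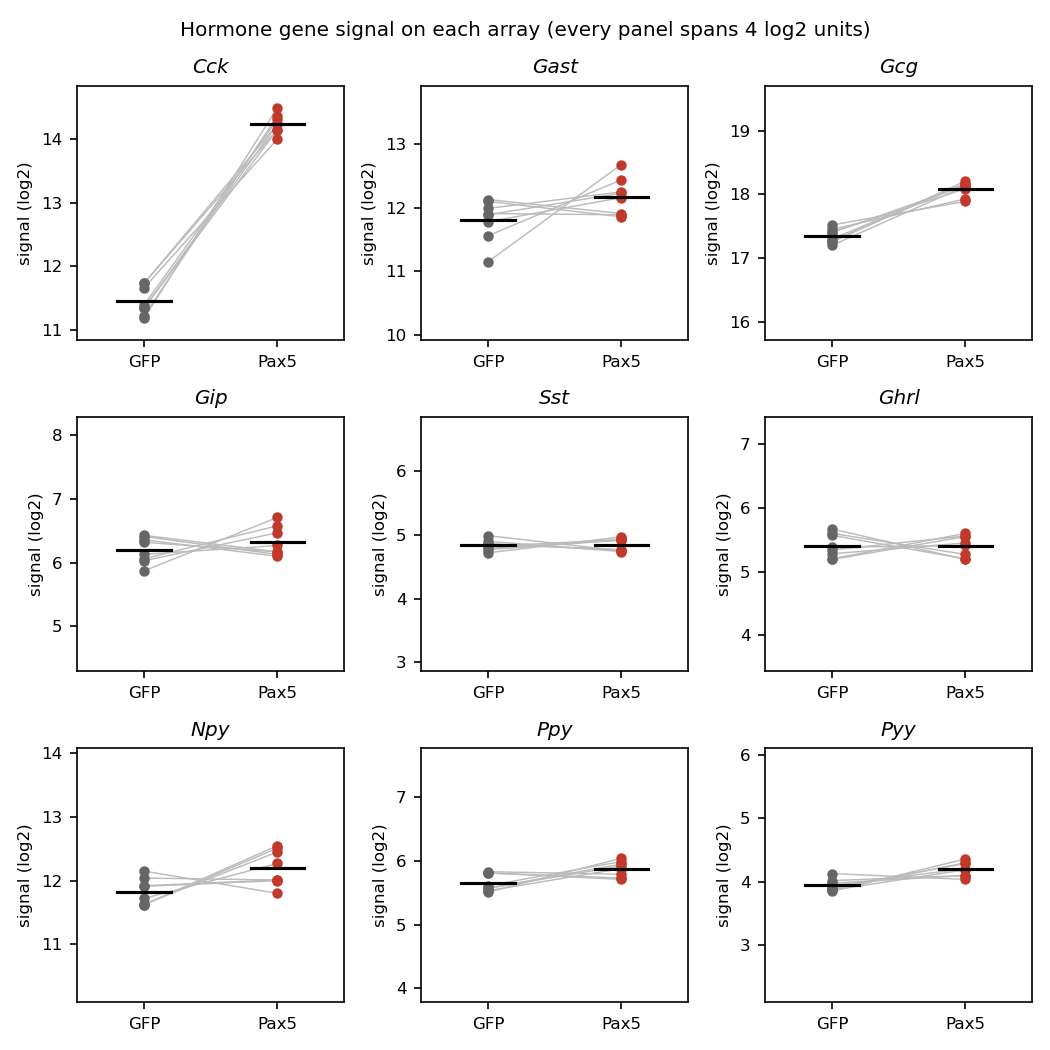
Log2 signal (vertical axis) of each hormone gene on the 8 GFP (grey) and 8 Pax5 arrays (red). Thin lines join the arrays of 1 experiment, black bars are group means, and every panel spans 4 log2 units around its own centre. The groups stood apart for Cck and Gcg and overlapped for the other 7 genes.

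Cck, whose peptide is released from the gut after a meal and acts on the pancreas, had the largest difference of the 9. Its log2 signal in GFP cells was 11.18 at the lowest, 11.37 at the median and 11.73 at the highest. In Pax5-overexpressing cells it was 14.00 at the lowest, 14.23 at the median and 14.49 at the highest. Every Pax5 array was brighter than every GFP array, by over 2 log2 units. The mean difference was 2.79 (SE 0.102), a 6.92-fold higher signal, and it ranged from 2.34 in experiment 7 to 3.31 in experiment 1. Leaving out 1 experiment at a time kept the mean between 2.72 and 2.86. Its mean over the 16 arrays, raised by the Pax5 arrays, placed it at percentile 91.7.

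Gast, the family relative, encodes the stomach hormone that stimulates acid secretion and is made in the fetal but little in the adult islet. Its log2 signal was 11.15 at the lowest, 11.90 at the median and 12.13 at the highest in GFP cells. In Pax5-overexpressing cells it was 11.86 at the lowest, 12.20 at the median and 12.68 at the highest. The groups overlapped, and the gene was higher with Pax5 in 5 of 8 experiments. The mean difference of 0.36 (SE 0.154) was set largely by experiment 1, where it was 1.53, and experiment 2, where it was 0.88. Without experiment 1 the mean difference was 0.20.

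Gcg encodes proglucagon, the precursor of glucagon and of the incretin GLP-1. Its cluster was among the brightest on the array, at percentile 99.9, in a line used as a model of β cells. The log2 signal was 17.20 at the lowest, 17.35 at the median and 17.52 at the highest in GFP cells, and 17.89 at the lowest, 18.14 at the median and 18.21 at the highest in Pax5-overexpressing cells. The groups did not overlap. The mean difference was 0.74 (SE 0.0788), a 1.67-fold higher signal, with the smallest differences in experiments 8 (0.37) and 7 (0.48) and the largest in experiment 3 (0.96). The differences had an SD of 0.219 (n = 8). Among the α cell markers, Gc fell by 0.36 (SE 0.0642, adjusted p = 0.000463 in limma) and Tm4sf4, a tetraspan membrane protein, rose by 0.29 (SE 0.0679, adjusted p = 0.00361 in limma). Ttr, which encodes the carrier protein transthyretin, had a difference of 0.03 (adjusted p = 0.799 in limma).

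Gip, the incretin of K cells in the upper gut, had a log2 signal of 5.87 at the lowest, 6.23 at the median and 6.43 at the highest in GFP cells. In Pax5-overexpressing cells it was 6.10 at the lowest, 6.22 at the median and 6.71 at the highest. The groups overlapped in part. The difference was above 0 in 4 experiments (2, 5, 6 and 8) and below 0 in the other 4, between -0.28 and 0.84, with a mean of 0.12 (SE 0.119). The mean was 0.02 without experiment 2.

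Npy encodes a neuronal peptide that stimulates feeding, and it is also expressed in fetal and immature β cells of rodents. Its log2 signal was 11.62 at the lowest, 11.82 at the median and 12.15 at the highest in GFP cells. It was 11.80 at the lowest, 12.14 at the median and 12.55 at the highest in Pax5-overexpressing cells. The groups overlapped, and the experiments fell apart in size. Npy was higher by 0.55 to 0.93 in experiments 4, 6, 7 and 8, whereas the differences of experiments 1, 2, 3 and 5 lay between -0.35 and 0.09. The mean was 0.37 (SE 0.130). This is the gene whose promoter window above holds GCGTGAC, and no window of Cck was searched.

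Ppy and Pyy, the other members of that family, are next to each other on chromosome 10 in the GRCr8 annotation. Ppy had a log2 signal of 5.51 at the lowest, 5.59 at the median and 5.83 at the highest in GFP cells, and 5.71 at the lowest, 5.90 at the median and 6.04 at the highest in Pax5-overexpressing cells. It was higher by 0.35 to 0.53 in experiments 1, 3, 4, 5 and 7 and had differences between -0.10 and -0.04 in experiments 2, 6 and 8, with a mean difference of 0.22 (SE 0.0841). Pyy had a log2 signal of 3.85 at the lowest, 3.92 at the median and 4.13 at the highest in GFP cells, and 4.04 at the lowest, 4.20 at the median and 4.36 at the highest in Pax5-overexpressing cells. The groups overlapped for both genes. Pyy was higher in 7 of 8 experiments, with a mean difference of 0.25 (SE 0.0761), but its cluster was at percentile 2.49, near the dim end of the array, where 9.49% of the dimmest 30% of clusters were called.

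Sst, the δ cell peptide that inhibits the release of insulin and glucagon, showed no shift. Its log2 signal lay between 4.72 and 4.99 in GFP cells and between 4.74 and 4.97 in Pax5-overexpressing cells, with medians of 4.84 and 4.85. The mean difference was 0.01 (SE 0.0724), above 0 in 4 experiments and below 0 in the other 4. The cluster was at percentile 19.4, among the dimmest 30%. Ghrl, which encodes the appetite-stimulating hormone ghrelin, lay between 5.19 and 5.67 in GFP cells and between 5.19 and 5.60 in Pax5-overexpressing cells. Its mean difference was 0.00 (SE 0.102), made up of 5 experiments with a higher signal (1, 3, 4, 5 and 7) and 3 with a lower one (2, 6 and 8). Those are also the 5 experiments in which Ppy was higher, and experiments 2, 6 and 8 were among the 4 in which Gip was higher. This match was seen after the values, and how often signs would match by chance was not examined. Some of the differences were small, such as 0.03 for Ghrl in experiment 3 and -0.04 for Ppy in experiment 6. The clusters were at percentile 31.5 for Ghrl, 37.5 for Ppy and 43.4 for Gip.

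**Figure D2:**
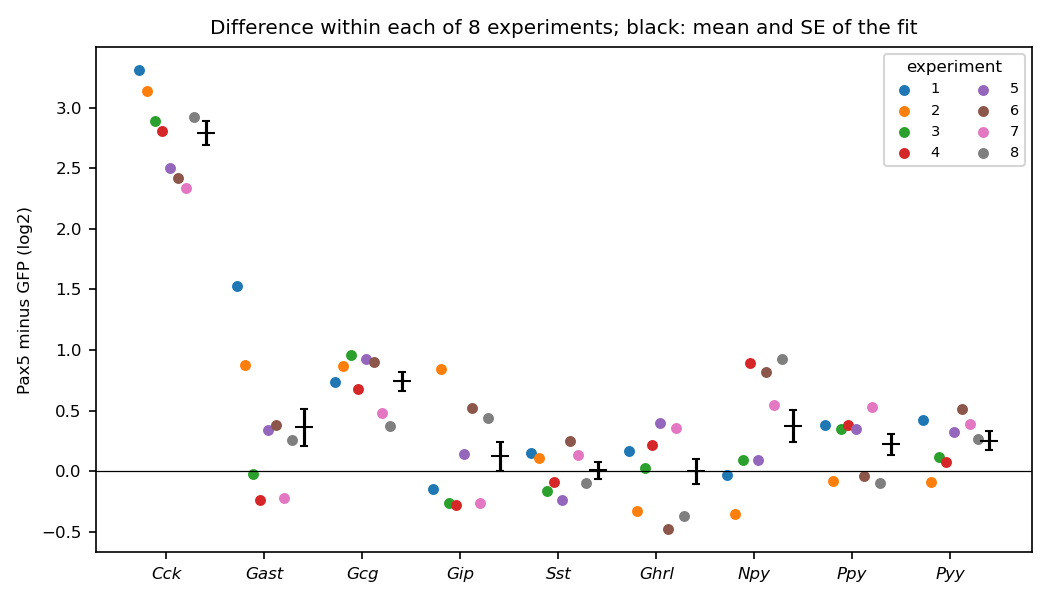
Log2 difference, Pax5 minus GFP (vertical axis), for each hormone gene, with 1 coloured point for each of the 8 experiments and the mean and SE of the limma fit in black. Only Cck and Gcg lay above 0 in 8 of 8 experiments, compared with 20.4% of all clusters that had the same sign in all 8.

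Whether a hormone gene moved more in experiments with a larger Pax5 difference was examined over the 8 differences. These were 9 relations with exact permutation tests (2-sided) and Benjamini-Hochberg adjustment. The Pax5 signal varied more between GFP arrays (SD 0.409, n = 8) than between Pax5 arrays (SD 0.191, n = 8). A larger difference is therefore not a measure of transgene dose alone, and a relation with dose was not tested. For Gast, Pearson's r was 0.755 (p = 0.0277, adjusted p = 0.249, exact permutation) and Spearman's rho 0.524 (p = 0.197, adjusted p = 0.590, exact permutation). For Cck, r was 0.638 (p = 0.0910, adjusted p = 0.410, exact permutation) and rho 0.524 (p = 0.197, adjusted p = 0.590, exact permutation). Without experiments 1 and 2, whose Pax5 differences were farthest from the median, r was -0.10 for Gast and -0.08 for Cck, so what relation there was rested on those experiments. No relation of the other 7 genes passed either, with r between -0.470 for Npy and 0.508 for Sst and adjusted p of 0.540 or above for r.

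**Figure D3:**
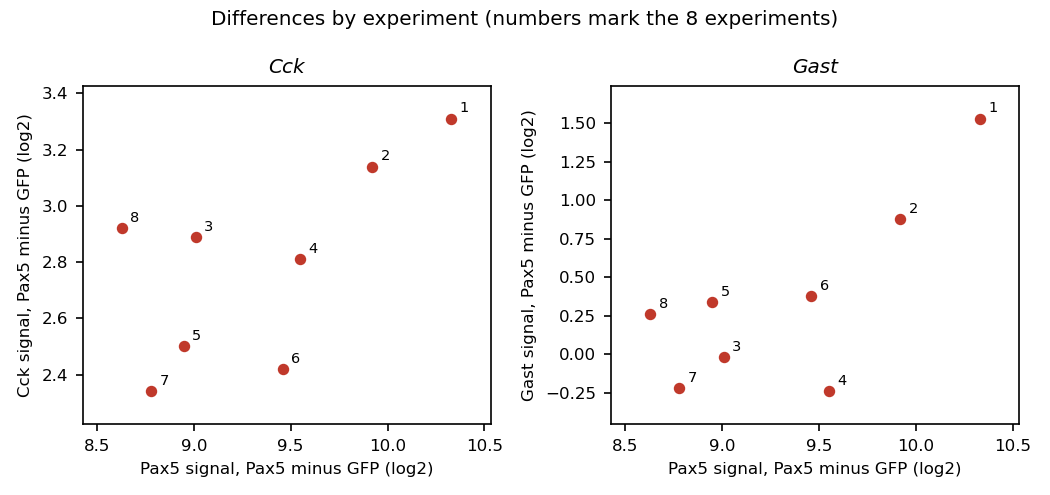
Log2 difference of Cck (left) and Gast (right) on the vertical axes against that of Pax5 on the horizontal axes, with 1 numbered point for each of the 8 experiments. Experiments 1 and 2 lay at the upper right of both panels, and the other 6 showed no common slope.

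The clusters most like Cck were sought among 15040 other named ones, as a description. Over the 16 arrays, where the difference between groups dominates, the highest Pearson r were those of Olfml3, an olfactomedin-like secreted protein (0.995), Pax5 (0.994), B4galt3, a galactosyltransferase (0.993), Mical2, an actin-oxidizing enzyme (0.992), and the retinoic acid receptor Rara (0.992). Over the 8 within-experiment differences, from which the mean is removed, they were Adnp2 (0.981), Lrrc61 (0.980), Ndufs4, a subunit of respiratory complex I (0.977), the leptin gene Lep (0.972) and Slc6a19, an amino acid transporter (0.966). The mean differences of these last 5 genes lay between -0.08 and 0.32, compared with 2.79 for Cck. These r values were the highest of 15040, and how high they would be by chance was not examined.

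Receptors of the 9 hormones changed in some cases, at a share near that of all clusters. Of 15 measured, 3 were higher and 2 lower with Pax5 (33.3%, beside 30.7% of all clusters), with a median difference of 0.07, and 6 lay among the dimmest 30%. Gcgr, the glucagon receptor, changed most. Its log2 signal was 11.68 at the lowest, 12.06 at the median and 12.29 at the highest in GFP cells, and 12.79 at the lowest, 12.88 at the median and 13.12 at the highest in Pax5-overexpressing cells. The groups did not overlap, and the rise was 0.90 (SE 0.0991, adjusted p = 4.66e-06 in limma). The somatostatin receptor Sstr3 rose by 0.51 (SE 0.103, adjusted p = 0.00124 in limma) and Sstr1 fell by 0.32 (SE 0.0766, adjusted p = 0.00499 in limma), each the same way in 8 of 8 experiments. The GLP-1 receptor Glp1r rose by 0.37 (SE 0.0963, adjusted p = 0.00821 in limma), in 6 of 8 experiments, and missed the threshold in the methods' paired test (adjusted p = 0.0522). Npy5r fell by 0.26 (SE 0.0940, adjusted p = 0.0488 in limma), a call lost after median centring, with array weights, in the methods' paired test and without experiment 1, 2, 4, 5, 7 or 8 (adjusted p between 0.0539 and 0.132). Gipr, the GIP receptor, at percentile 89.2, had a difference of -0.07 (adjusted p = 0.614 in limma). Cckbr, the receptor of gastrin and cholecystokinin, had 0.07 at percentile 2.43 (adjusted p = 0.624 in limma). Cckar, the other cholecystokinin receptor on the list of 17, had no cluster under its symbol.

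Of 23 measured enzymes that process prohormones or break peptides down, 10 were higher and 4 lower (60.9%, beside 30.7% of all clusters), with a median difference of 0.16. The list was drawn up with earlier results of these data known, and its share was not tested against that of other clusters. Clusters above the dimmest 30% were called in 39.7% of cases, and 21 of the 23 belong to them. Furin, the proprotein convertase of the Golgi, had a log2 signal of 9.51 at the lowest, 9.60 at the median and 9.73 at the highest in GFP cells, and 10.76 at the lowest, 11.00 at the median and 11.10 at the highest in Pax5-overexpressing cells. The groups did not overlap, and it rose 2.58-fold (1.37 on the log2 scale, SE 0.0706, adjusted p = 1.23e-09 in limma), the only gene of this list changed at least 2-fold. Tpst2, which sulfates tyrosines of secreted proteins as is known for cholecystokinin and gastrin, rose by 0.98 (SE 0.0638, adjusted p = 1.49e-08 in limma). The aminopeptidase Lnpep rose by 0.59, the convertase Pcsk6 by 0.50, the endothelin-converting enzyme Ece1 by 0.43 and the neutral endopeptidase Mme by 0.48 (adjusted p between 0.000137 and 0.000357 in limma), each in 8 of 8 experiments. Of the list's other called genes, Mboat4 rose by 0.34, Scg5 by 0.25, Pcsk1n by 0.20 and Cpd by 0.19. The 4 called lower were Anpep (by 0.50), Qpct (0.485), Ide (0.29) and Pcsk5 (0.26). The adjusted p of these genes in limma lay between 0.00102 and 0.0408. The granule enzymes Pcsk2, Cpe and Pam, all with very bright clusters, did not pass. Pcsk1, a further convertase of the list, had no cluster under its symbol. Pcsk2, the convertase that releases glucagon, had a difference of -0.09, the carboxypeptidase Cpe -0.02 and the amidating enzyme Pam 0.18 (adjusted p from limma between 0.109 and 0.831).

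Transcription factors of islet and enteroendocrine hormone genes moved both ways. Of 28 measured, 8 were higher and 5 lower (46.4%, beside 30.7% of all clusters and 39.7% of those above the dimmest 30%), the median difference was -0.00, and none changed at least 2-fold. Pax6, a paired-domain relative of Pax5 that activates the genes of glucagon and insulin, fell by 0.75 (SE 0.0651, adjusted p = 3.17e-07 in limma). Its log2 signal was 15.45 at the lowest, 15.52 at the median and 15.57 at the highest in GFP cells, and 14.62 at the lowest, 14.80 at the median and 14.85 at the highest in Pax5-overexpressing cells. Gcg was higher on the same arrays, and whether the changes of Pax6 and Gcg are related was not tested. The zinc finger factor St18 fell by 0.73 (SE 0.0698, adjusted p = 9.07e-07 in limma). The 4 other factors with the lowest p rose, the GATA factor Gata4 by 0.80 (SE 0.0782), the forkhead factor Foxa1, which also acts at the glucagon gene, by 0.80 (SE 0.0892), Gata6 by 0.74 (SE 0.0870) and Sox4 by 0.88 (SE 0.0884). Their adjusted p in limma ranged from 1.27e-06 for Gata4 to 8.54e-06 for Gata6, and each rose in 8 of 8 experiments. Of the other called factors, Foxa2 rose by 0.36, Neurod1 by 0.29, Isl1 by 0.22 and Pax4, with a dim cluster, by 0.41. Nkx2-2 fell by 0.50, Crem by 0.40 and Myt1 by 0.25. The adjusted p of these genes in limma lay between 0.000565 and 0.0291.

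Other peptide hormone and neuropeptide genes were called at a share near that of all clusters. Of 66 measured, 6 were higher and 12 lower (27.3%, beside 30.7% of all clusters, 14.6% higher and 16.1% lower), with a median difference of -0.01, and 30 of the 66 lay among the dimmest 30%, 29 of them not called. Stc1, which encodes stanniocalcin, fell most. Its log2 signal was 14.84 at the lowest, 15.28 at the median and 15.40 at the highest in GFP cells, and 12.04 at the lowest, 12.33 at the median and 12.64 at the highest in Pax5-overexpressing cells, and the groups did not overlap. Stc1 fell by 2.90 (SE 0.0953, adjusted p = 7.72e-12 in limma). The vasodilator adrenomedullin, Adm, fell by 1.46 (SE 0.152), the stress-induced Gdf15 fell by 1.45 (SE 0.223) with overlapping groups, and Prok2, a prokineticin, fell by 1.31 (SE 0.201). Nucb2, the precursor of nesfatin, fell by 0.97 (SE 0.0656), Cartpt fell by 0.77 (SE 0.111) and Vgf fell by 0.75 (SE 0.0827). The adjusted p of these 6 genes in limma ranged from 2.23e-08 for Nucb2 to 0.000123 for Gdf15, and each fell in 8 of 8 experiments. Iapp, the amylin gene, rose by 0.46 (SE 0.0639, adjusted p = 4.82e-05 in limma), while the insulin genes Ins1 and Ins2 had differences of -0.06 and 0.11 (adjusted p = 0.479 and 0.325 in limma). No gene of this list rose at least 2-fold, and 4 fell at least 2-fold.

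**Figure D4:**
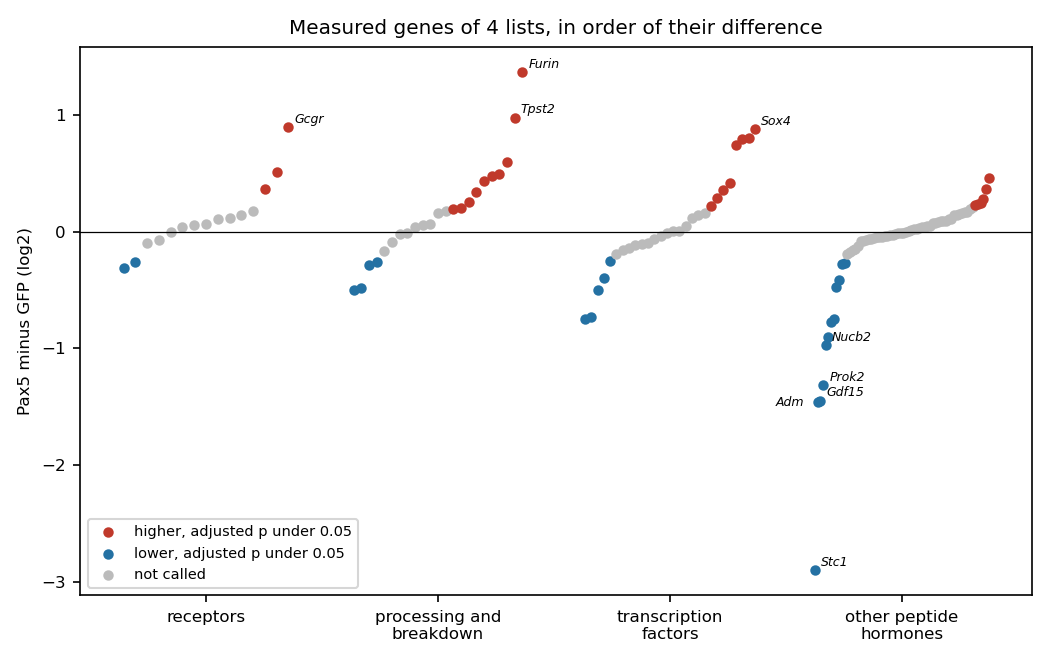
Log2 difference, Pax5 minus GFP (vertical axis), of every measured gene in the lists of receptors, processing and breakdown enzymes, transcription factors and other peptide hormones, ordered by size within each list. Red and blue points were called higher and lower at an adjusted p under 0.05 in limma, and grey points were not called. Furin stood highest at 1.37 and Stc1 lowest at -2.90.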

How the data were processed

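Total RNA of INS1 β cells was hybridized to 1-colour Affymetrix arrays (16 samples). The deposited values are on a log2 scale. Per the labels the authors used RMA and the Transcriptome Analysis Console, of unstated version, and whether other steps followed is unstated too. The annotation gave 1 symbol to 15049 of 23188 clusters, 0 had several and 8139 are unnamed here. Pax5 was compared with GFP by limma 3.58.1 in R 4.3.3 (lmFit, eBayes), blocking on experiment, and p-values of 23188 clusters were adjusted by Benjamini-Hochberg with a threshold of 0.05. The pairing comes from the experiment numbers in the titles, and the correlation of paired deviations is given in the report. The code was tested on simulated data. Members and lists were chosen with earlier results of these data known. Named were the members, up to 6 called genes of each list with the lowest p, called list genes changed at least 2-fold, and the 5 clusters most like Cck by each measure; other genes were named after their values were seen. Promoter sequences came from RefSeq (GRCr8). Alternatives were a fit without the block, median centring, quantile normalization, a filter removing the dimmest 30% of clusters, array weights, trended and robust eBayes, the methods' paired test, the mean over a symbol's clusters (the same here, with 1 cluster each), and omission of each experiment. Scanner files were not used here, so probe background and saturation were not examined. Precision is limited by having 8 arrays a group.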

Additional observations from a re-analysis of the deposited data

Results flagged for a closer look

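Among 88 groups of 8 arrays, each 1 gene in 1 condition, 3 had a highest or lowest array farther from its neighbour than Dixon's 95% value allows, where chance gives about 4.4. Sstr1 was lowest at 6.19 on the Pax5 array of experiment 3, with the nearest at 6.40. Stc1 was lowest at 14.84 on the GFP array of experiment 1, with the nearest at 15.14. Olfml3 was highest at 7.93 on the GFP array of experiment 5, with the nearest at 7.70. None of the 18 groups of the hormone genes was among them.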

How the results depend on the processing

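The differences of the 9 hormone genes stayed within 1 SD of their spread between experiments under every alternative that could be run, and Sst and Pyy had no value with dim clusters left out. Without 1 experiment, the mean difference lay between 2.72 and 2.86 for Cck, 0.71 and 0.79 for Gcg, 0.29 and 0.48 for Npy, 0.18 and 0.27 for Ppy, 0.22 and 0.30 for Pyy, 0.20 and 0.45 for Gast, 0.02 and 0.18 for Gip, -0.03 and 0.04 for Sst and -0.06 and 0.07 for Ghrl. Without the replicate block, 10584 clusters were called in place of 7108, among them 6 of the 9 hormone genes (Gast and Ppy added to the 4). Since the 2 arrays of an experiment deviated in opposite directions, that fit tends to understate the error of a difference. Nothing is read from its added calls. The methods' paired test called 6073 clusters and 3 hormone genes, without Npy. With dim clusters left out, or with array weights, Ppy was called as well. Counts of called list genes stayed within 1.5 times their main value under all 15 alternatives. Of the 25 list genes named by the rule on p and fold, calls were lost only for Npy5r and Glp1r, as given above. Calls of the other list genes were not followed 1 by 1. No relation with the Pax5 difference had an adjusted p under 0.05 in any setting, the nearest being Gast without experiment 4 (r = 0.905, adjusted p = 0.05, exact permutation). Calls were made in 9.49% of the dimmest 30% of clusters, to which Sst and Pyy belong, and in 39.7% of the others.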
